A study of Mus musculus with 16 samples.

Results

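The 10 genes that mark the production of new neurons and the mature granule cells of the dentate gyrus were followed in whole mouse brain, 10 of the 49671 genes counted. They were chosen by symbol: Mki67 and Top2a for dividing cells, Eomes for intermediate progenitors, Neurod1 for late progenitors and granule neurons, Dcx, Sox11 and Igfbpl1 for neuroblasts, and Prox1, C1ql2 and Dsp for dentate granule cells. All 10 were among the 18875 genes that passed the filter on low counts. The choice was made with earlier results of these data known, in which Prox1 stood among the larger falls in mice given LPS at both ages against mice given saline at both. Its value in that comparison, and in the averaged prenatal comparison that contains the same libraries, is therefore a description and supports nothing.

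The libraries came from C57BL/6 mice, 1 whole brain per mouse and 4 mice per group, collected at postnatal day 32. Dams received an intraperitoneal injection on gestation day 16, and their male offspring received another at postnatal day 30, each with saline or with lipopolysaccharide (LPS), a bacterial cell-wall component that triggers innate immunity. The LPS-LPS group had LPS at both ages and the saline-saline group had it at neither, while LPS-saline mice had it through the dam only and saline-LPS mice at postnatal day 30 only. The first word of each name is read as the dam's injection, an order that the labels leave unsaid. All mice carried the same strain background and received an injection at both ages. Litters are not given, so mice may share a dam, and each p-value covers only the spread among the mice sampled.

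In the brain after birth, new neurons come mainly from stem cells in the subgranular zone of the dentate gyrus and in the subventricular zone beside the lateral ventricles. Dividing progenitors pass through an Eomes-positive stage in the dentate gyrus, become Dcx-positive neuroblasts, and settle as Prox1-positive granule cells, while the progeny of the subventricular zone migrate to the olfactory bulb. None of the markers belongs to this lineage alone: Eomes is also made by olfactory bulb projection neurons, Neurod1 by cerebellar granule cells, and Prox1 by some interneurons, oligodendrocyte precursors, lymphatic endothelium and cells of the diencephalon.

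The promoters of the dividing-cell genes and of the dentate granule genes whose values differed most are shown first, so that their letters can be compared with how the genes behaved. RefSeq windows on GRCm38.p6, from 250 bases before to 50 bases after the start of transcription, were matched by symbol for 9 of the 10 genes (11 windows). Each is written from 5′ to 3′ on the gene's own strand, and capitals mark 3 motifs searched on both strands. The first is CCAAT, read as ATTGG when it lies on the opposite strand. Another is TTTGAA, an element of many cell-cycle promoters, which then reads as TTCAAA. The last is CAGATG, an E-box of the kind bound by neuronal basic helix-loop-helix factors, whose reverse is CATCTG.
Mki67 at chr7:135716330-135716629, minus strand: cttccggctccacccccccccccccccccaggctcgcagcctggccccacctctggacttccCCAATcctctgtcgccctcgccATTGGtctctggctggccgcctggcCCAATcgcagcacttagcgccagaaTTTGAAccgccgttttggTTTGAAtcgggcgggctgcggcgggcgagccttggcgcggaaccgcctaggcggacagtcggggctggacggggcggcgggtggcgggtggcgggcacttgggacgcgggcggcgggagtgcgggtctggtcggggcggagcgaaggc
Top2a at chr11:99024140-99024439, minus strand: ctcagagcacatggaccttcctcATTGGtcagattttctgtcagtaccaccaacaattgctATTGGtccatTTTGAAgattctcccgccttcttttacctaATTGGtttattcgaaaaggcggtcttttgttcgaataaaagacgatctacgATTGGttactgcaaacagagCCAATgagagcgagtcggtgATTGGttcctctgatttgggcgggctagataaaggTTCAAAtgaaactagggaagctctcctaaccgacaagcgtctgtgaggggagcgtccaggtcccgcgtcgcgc
Prox1 at chr1:190170778-190171077, minus strand: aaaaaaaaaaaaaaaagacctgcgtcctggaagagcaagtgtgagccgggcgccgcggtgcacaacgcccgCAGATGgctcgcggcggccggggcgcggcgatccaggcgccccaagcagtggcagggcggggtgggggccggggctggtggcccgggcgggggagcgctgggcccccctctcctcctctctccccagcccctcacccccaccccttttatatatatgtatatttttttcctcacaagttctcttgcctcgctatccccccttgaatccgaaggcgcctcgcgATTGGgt
Dsp at chr13:38151044-38151343, plus strand: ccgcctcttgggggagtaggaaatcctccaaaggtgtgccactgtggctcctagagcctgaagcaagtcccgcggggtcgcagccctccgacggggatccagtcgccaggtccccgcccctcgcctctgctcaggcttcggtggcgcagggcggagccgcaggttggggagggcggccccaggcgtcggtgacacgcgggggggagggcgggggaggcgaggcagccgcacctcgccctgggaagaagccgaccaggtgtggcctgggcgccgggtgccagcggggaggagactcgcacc
Mki67 held 3 CCAAT and 2 TTTGAA matches, and Top2a held 6 and 2. Of 32851 promoter windows of this length, 37.41% held CCAAT, 17.89% held TTTGAA and 6.95% held both. The Prox1 window held 1 CAGATG and 1 CCAAT match, CAGATG being present in 17.15% of all windows, and the other Prox1 window at chr1:190169466-190169765 held 0 of the 3 motifs. The windows of Dsp, C1ql2 and Neurod1 held 0 of the 3 motifs. Those of Dcx held 1 CCAAT each, that of Eomes held 2 CCAAT, and that of Sox11 held 1 CCAAT and 1 TTTGAA. No motifs overlapped in these windows. A match describes letters only.

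Libraries held 25729919 to 38571036 gene counts, so 1 read was worth 0.0259 to 0.0389 CPM, the unit in which counts are expressed relative to the library total. Levels below are CPM with TMM scaling. Whole-brain neuronal markers were present in every library, with Snap25 at 981 to 1681 CPM. Several libraries stood apart. Of Gabra6, a GABA-A subunit that marks granule cells of the cerebellum, 8 libraries from all groups held less than 1 CPM (3 of saline-saline, 2 of LPS-saline, 2 of saline-LPS and 1 of LPS-LPS), and another held 70.4 CPM. Gh, the pituitary growth hormone gene, reached 502 CPM in LPS-LPS 1 and 44.1 CPM in saline-LPS 1. LPS-LPS 3, labelled male, held 503 CPM of Xist and no read of the Y-linked Ddx3y. Expression also followed exonic length to a degree that differed between groups: Spearman's rho of each gene's deviation with length ran from 0.153 to 0.328 over the saline-saline libraries and from -0.369 to -0.184 over the LPS-LPS libraries.

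Per kilobase of exons, saline-saline brains held most C1ql2 and least Mki67. C1ql2, a synaptic organiser secreted by mossy fibres, stood at 7.73 ± 1.02 CPM per kilobase (SD, n = 4), followed by Neurod1 at 4.67 ± 4.03 and Dcx at 4.46 ± 0.492. The place of Neurod1 rested on saline-saline 4, at 29.3 CPM before division by length, against 7.18 to 7.37 CPM in the other saline-saline brains. Prox1 (3.55 ± 0.415), Sox11 (3.31 ± 0.332), Eomes (2.34 ± 0.437) and Igfbpl1 (1.97 ± 0.314) came next on this scale. Dsp (0.645 ± 0.0842), Top2a (0.374 ± 0.0794) and Mki67 (0.326 ± 0.0571) were the lowest of the 10 per kilobase. The pairs C1ql2 and Neurod1, Neurod1 and Dcx, Prox1 and Sox11, Eomes and Igfbpl1, and Top2a and Mki67 are neighbours whose means differed by less than the larger of their SDs.

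**Figure D1:**
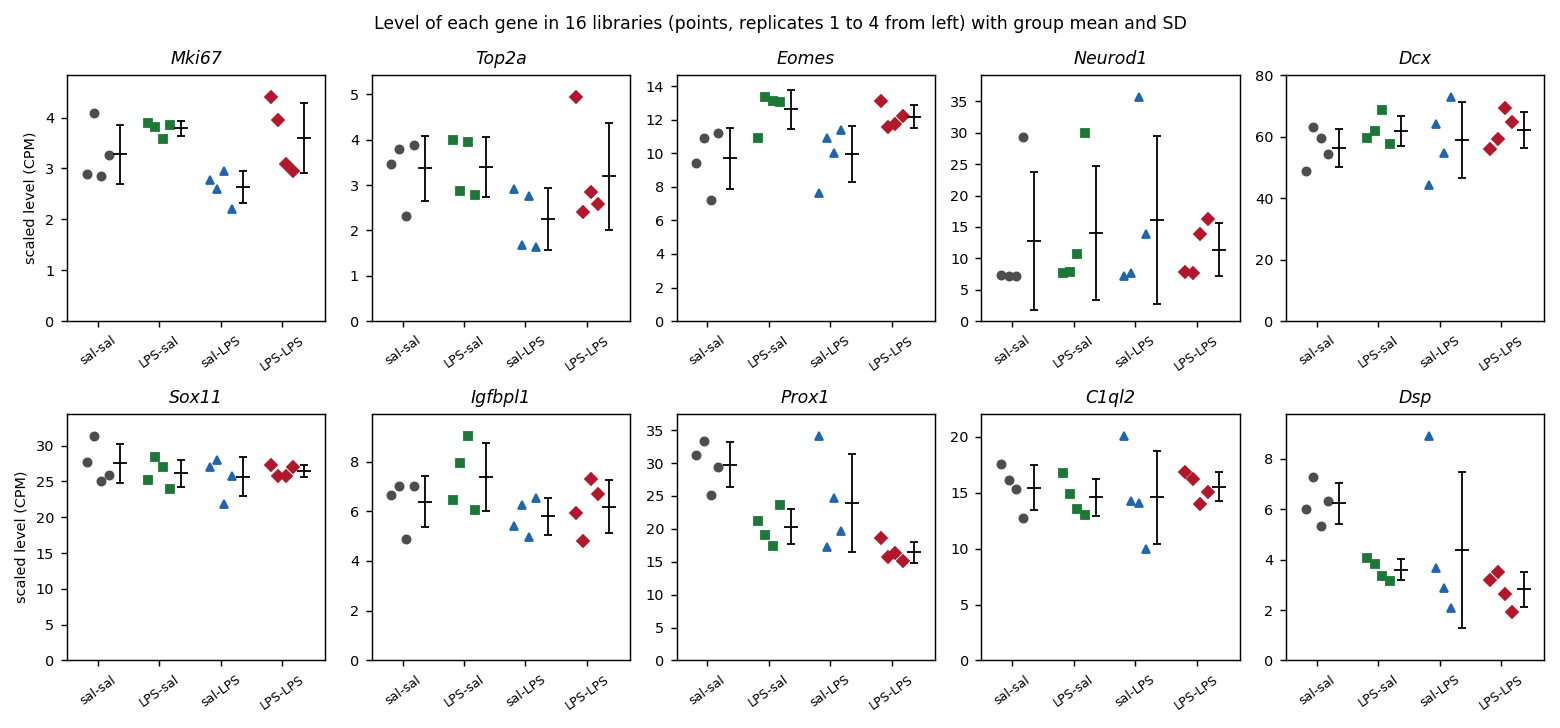
Scaled level (CPM, from 0) of each of the 10 genes in the 16 libraries, with 1 point per library in replicate order and the group mean and SD beside it. Prox1 and Dsp of the LPS-saline and LPS-LPS libraries lie below all 4 saline-saline points, Neurod1 has a few libraries far above the rest, and saline-LPS 1 is the highest point for Prox1, C1ql2 and Dsp.

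Prenatal LPS, averaged over the pubertal injection, was accompanied by less Prox1 and more Eomes RNA in whole brain (Prox1 as a description only), while 8 of the 10 genes did not pass the test. Prox1 averaged 26.8 CPM over the 8 brains of saline-injected dams and 18.4 CPM over the 8 of LPS-injected dams, and Eomes 9.84 and 12.4 CPM. Of the 10 genes, 1 was called higher and 1 lower by edgeR's quasi-likelihood test at an adjusted p under 0.05. Over all tested genes 4.9% were called higher and 2.92% lower, 7.82% in all. In whole tissue, fewer cells of a type and less RNA per cell cannot be told apart.

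Among genes of dividing cells, Mki67, which coats mitotic chromosomes, read 2.88, 4.09, 2.85 and 3.27 CPM in saline-saline brains 1 to 4 and 3.90, 3.81, 3.58 and 3.86 CPM in LPS-saline brains. It read 2.78, 2.59, 2.95 and 2.21 CPM in saline-LPS brains and 4.41, 3.95, 3.10 and 2.94 CPM in LPS-LPS brains. Every group overlapped its prenatal counterpart; the lowest LPS-LPS brain lay just under the highest saline-LPS brain, and saline-saline 2 was the highest of the brains from saline-injected dams. The averaged prenatal difference was 0.33 ± 0.11 (log2 fold change ± SE), with an edgeR adjusted p of 0.0603. It was 0.21 ± 0.15 before pubertal saline (adjusted p = 0.594) and 0.45 ± 0.15 before pubertal LPS (adjusted p = 0.184).

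Mki67 passed the threshold in 6 of 28 other settings and missed it in the rest, with averaged differences from 0.27 to 0.44 and adjusted p-values from 0.0266 to 0.358. With the replicate number as a block the averaged difference was again 0.33, with an adjusted p of 0.0405, and without saline-saline 2 it was 0.39 with an adjusted p of 0.0373. With correction for length and GC content it was 0.42 (adjusted p = 0.0266). It was 0.27 without LPS-LPS 1 (adjusted p = 0.137) and 0.42 with the olfactory bulb covariate described below (adjusted p = 0.19).

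Top2a, the topoisomerase that untangles replicated chromosomes, read 3.47, 3.79, 2.33 and 3.88 CPM in saline-saline brains and 4.00, 2.87, 3.95 and 2.78 CPM in LPS-saline brains. It read 2.90, 1.69, 2.76 and 1.62 CPM in saline-LPS brains and 4.94, 2.40, 2.85 and 2.58 CPM in LPS-LPS brains. The saline-LPS group held the 2 lowest brains and LPS-LPS 1 was the highest of all 16, but all 4 groups overlapped. The averaged prenatal difference was 0.26 ± 0.17 on the log2 scale (adjusted p = 0.389), and it was 0.12 without LPS-LPS 1.

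Of 26 other cell-cycle genes, 0 were called by edgeR or DESeq2 in the averaged prenatal comparison, with 5 of the 26 at an unadjusted p under 0.05 against 23.2% of all tested genes, and their median log2 fold change was 0.10 against -0.0054 over all tested genes. The smallest p belonged to the spindle factor Tpx2 (0.31 ± 0.11, adjusted p = 0.101) and the replication helicase subunit Mcm5 (0.19 ± 0.07, adjusted p = 0.119). Their summed level overlapped between all 4 groups, from 169 to 195 CPM. Of 15 neural stem cell genes, 2 rose: Hes5, a Notch target that keeps progenitors undifferentiated, by 0.46 ± 0.12 (adjusted p = 0.0199), and the intermediate filament gene Vim by 0.20 ± 0.06 (adjusted p = 0.0372). Hes5 averaged 4.02 ± 0.900 CPM after prenatal saline and 5.56 ± 0.676 CPM after prenatal LPS (SD, n = 8 each). In these 15 genes the median log2 fold change was 0.10, and the number called was 0 with the olfactory bulb covariate. Over all tested genes 4.9% were called higher in the averaged prenatal comparison.

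Eomes, the T-box factor of intermediate progenitors, rose by 0.34 ± 0.09 on the log2 scale after prenatal LPS (edgeR adjusted p = 0.0268). It read 9.45, 10.9, 7.23 and 11.2 CPM in saline-saline brains and 10.9, 13.4, 13.1 and 13.1 CPM in LPS-saline brains. In saline-LPS brains it read 7.62, 10.9, 9.995 and 11.4 CPM, and in LPS-LPS brains 13.1, 11.6, 11.8 and 12.2 CPM. All LPS-LPS brains lay above all saline-LPS and saline-saline brains, while LPS-saline 1 lay inside the saline-saline range. The difference was 0.38 ± 0.13 before pubertal saline (adjusted p = 0.185) and 0.29 ± 0.13 before pubertal LPS (adjusted p = 0.314), so neither pair of groups gave a call alone.

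The Eomes call was kept in 19 of 28 other settings, with values from 0.18 to 0.37 over the 28. Without LPS-saline 2, LPS-saline 3 or LPS-LPS 1 the averaged value was 0.32, 0.33 or 0.32, with adjusted p-values of 0.0522, 0.0527 and 0.0583. The 7 olfactory bulb markers summed to 188 to 287 CPM after prenatal saline and 248 to 297 CPM after prenatal LPS. With a covariate made of 3 of them (the mean log2 CPM of Cdhr1, Doc2g and Tbx21), Eomes differed by 0.18 (adjusted p = 0.476). With the length and GC correction it was 0.31 (adjusted p = 0.0833). It was 0.24 with the thalamus covariate described below (adjusted p = 0.224). Without the 3 libraries with pituitary or Xist RNA it was 0.26 (adjusted p = 0.171). Of the 7 bulb markers edgeR called 0, with 5 at an unadjusted p under 0.05. DESeq2 called 3, as it did 16.6% of the genes to which it gave an adjusted p. The median log2 fold change of the 7 was 0.27. Tbx21, the T-box gene of bulb projection neurons, stood at 0.44 ± 0.14 (adjusted p = 0.0512). Within groups, Eomes and the mean of the 3 covariate markers gave r = 0.53 (permutation p = 0.0752, adjusted p = 0.222). This r was 0.76 in the 8 libraries under 1 CPM of Gabra6 and 0.18 in the 8 others. The bulb markers themselves leaned higher after prenatal LPS, so the bulb covariate cannot separate bulb content from the exposure, wherever it is used. The part of the bulb in the result was not tested further.

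**Figure D2:**
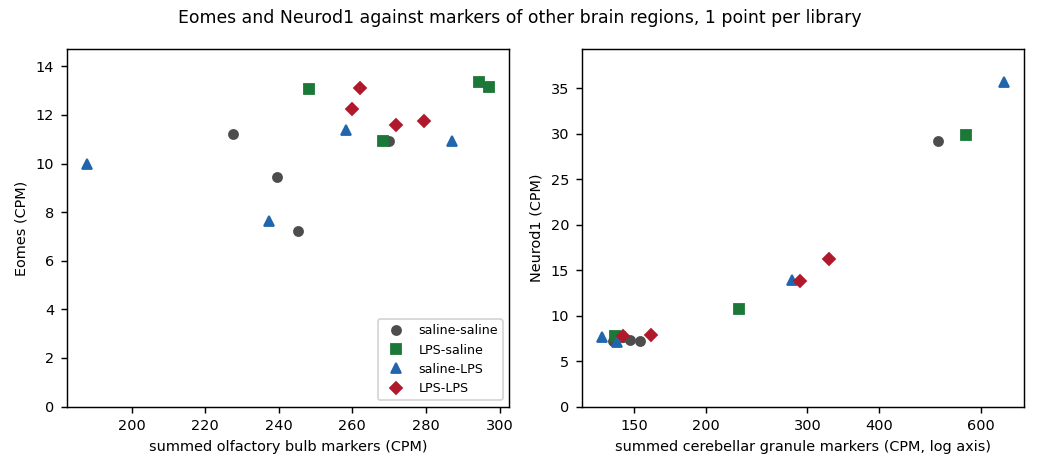
Eomes level (CPM) against the summed CPM of 7 olfactory bulb markers, and Neurod1 level (CPM) against the summed CPM of 8 cerebellar granule markers on a log axis, 1 point per library. Eomes lies at 10.9 to 13.4 CPM in brains of LPS-injected dams, which hold 248 to 297 CPM of bulb markers, and Neurod1 climbs with the cerebellar sum in all 4 groups.

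Neurod1, a basic helix-loop-helix factor of late progenitors and of granule neurons in both hippocampus and cerebellum, varied most among the 10. It read 7.37, 7.19, 7.18 and 29.3 CPM in saline-saline brains, 7.66, 7.77, 10.7 and 29.9 CPM in LPS-saline brains, 7.12, 7.62, 35.7 and 13.9 CPM in saline-LPS brains, and 7.83, 7.73, 13.8 and 16.2 CPM in LPS-LPS brains. The 9 lowest brains spanned 7.12 to 7.83 CPM and came from every group: the 8 with Gabra6 under 1 CPM (saline-saline 1 to 3, brains 1 and 2 of LPS-saline and of saline-LPS, and LPS-LPS 2) and LPS-LPS 1, with 2.504 CPM of Gabra6. The 7 brains above 10 CPM of Neurod1 were those with 17.0 to 70.4 CPM of Gabra6. Within the 8 Gabra6-poor libraries, group-centred Neurod1 and a cerebellar score correlated at r = 0.55 and within the other 8 at r = 0.92, points that share their libraries' scaling. The averaged prenatal difference was -0.19 ± 0.48 (adjusted p = 0.868). It was 0.08 within Gabra6-poor libraries (adjusted p = 0.811) and 0.21 without saline-saline 4. Reads of Cerkl, which overlaps Neurod1 on the same strand, averaged 1.19 CPM.

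The neuroblast genes Dcx, Sox11 and Igfbpl1 did not pass the test in any comparison. Dcx, which stabilises microtubules in migrating neuroblasts, read 48.8, 63.1, 59.4 and 54.3 CPM in saline-saline brains and 59.5, 61.9, 68.8 and 57.6 CPM in LPS-saline brains. It read 44.3, 64.2, 54.6 and 72.9 CPM in saline-LPS brains and 55.9, 59.3, 69.3 and 64.6 CPM in LPS-LPS brains. The lowest and the highest of all 16 brains were both in the saline-LPS group, and all groups overlapped. The averaged prenatal difference was 0.11 ± 0.09 (adjusted p = 0.499), and it was -0.08 with the olfactory bulb covariate.

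Sox11, a factor that turns on neuronal genes in neuroblasts, ranged from 21.8 to 31.3 CPM over all 16 brains, with a coefficient of variation of 7.93%, the lowest of the 10. Its averaged prenatal difference was -0.01 ± 0.06 (adjusted p = 0.928). Igfbpl1, a secreted protein of neuroblasts, ranged from 4.80 to 9.02 CPM and differed by 0.16 ± 0.11 (adjusted p = 0.418). Its highest brain was LPS-saline 3 and its lowest LPS-LPS 2, both from LPS-injected dams.

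In a wider list of 17 neuroblast and immature neuron genes, 5 rose in the averaged prenatal comparison and 0 fell. Over all tested genes 4.9% were called higher and 2.92% lower. DESeq2 called 6 of the 17, against 16.6% of the genes to which it gave an adjusted p. The median log2 fold change of the 17 was 0.13. Stmn1, a microtubule regulator abundant in young neurons, rose by 0.21 ± 0.05 (adjusted p = 0.02) from 452 ± 44.8 to 522 ± 20.9 CPM (SD, n = 8 each). Tubb3, the neuronal tubulin, rose by 0.15 ± 0.04 (adjusted p = 0.0315). Sp8 and Dlx2, factors of the interneurons made for the olfactory bulb, rose by 0.30 ± 0.08 (adjusted p = 0.0259) and 0.28 ± 0.08 (adjusted p = 0.0383), and the neurokinin gene Tac2 by 0.28 ± 0.09 (adjusted p = 0.048). Sp8 averaged 14.9 CPM after prenatal saline and 18.3 CPM after prenatal LPS. The counts of calls were 0 with the olfactory bulb covariate, 1 with the length and GC correction, and between 0 (without LPS-LPS 3) and 5 when single libraries were left out. Median exonic length in this list was 2855 bases, against 5182 bases in the dentate granule list. Of 4 whole-brain neuronal markers, edgeR called 1 in the same comparison. Slc17a7 rose by 0.17 ± 0.05 (adjusted p = 0.042), from a mean of 1475 CPM to 1664 CPM. The part of neurons other than neuroblasts in the values of Stmn1 and Tubb3 was not tested.

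**Figure D3:**
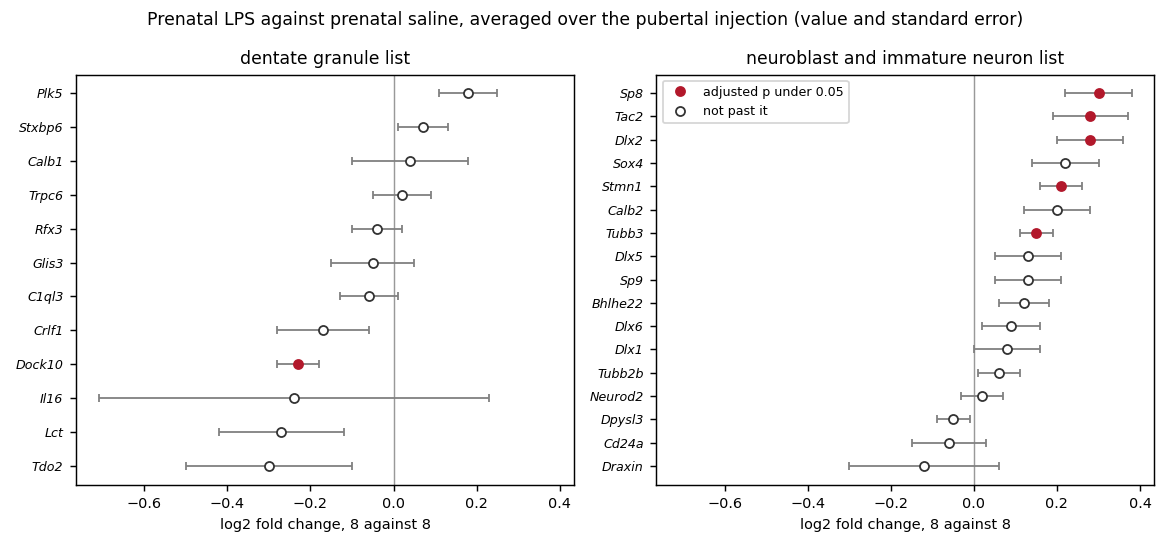
Log2 fold change and standard error of the 12 listed dentate granule genes and the 17 listed neuroblast and immature neuron genes after prenatal LPS, averaged over the pubertal injection (8 against 8 brains). Filled points passed an adjusted p of 0.05: Dock10 below 0 on the left, and Stmn1, Sp8, Tubb3, Dlx2 and Tac2 above 0 on the right.

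Prox1, the homeobox factor that specifies and maintains dentate granule identity, read 31.2, 33.3, 25.1 and 29.4 CPM in saline-saline brains and 21.2, 19.1, 17.4 and 23.6 CPM in LPS-saline brains. It read 34.1, 17.2, 24.7 and 19.6 CPM in saline-LPS brains and 18.7, 15.7, 16.3 and 15.1 CPM in LPS-LPS brains. All 8 brains from LPS-injected dams lay below all 4 saline-saline brains. The saline-LPS group spanned both ranges, with its brain 1 the highest of the 16 and its brain 2 inside the LPS-LPS range.

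Averaged over the pubertal injection, the Prox1 difference after prenatal LPS was -0.55 ± 0.12 on the log2 scale, a 1.46-fold lower level, given as a description. LPS-saline against saline-saline gave -0.55 ± 0.17 (edgeR adjusted p = 0.153) and LPS-LPS against saline-LPS gave -0.54 ± 0.17 (adjusted p = 0.16), each sharing 1 group with the comparison for which Prox1 was known. Without saline-LPS 1 the second of these was -0.32, and the first, whose value stayed at -0.55, had an adjusted p of 0.0187. Prox1os and Gm28172, genes opposite to Prox1 whose reads cannot be told apart from its own without strand, averaged 0.953 and 0.147 CPM.

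Dsp, the desmosomal plaque protein and a marker of dentate granule cells, had its highest group mean in saline-saline and its lowest in LPS-LPS brains, as Prox1 did. It read 6.01, 7.28, 5.32 and 6.32 CPM in saline-saline brains and 4.07, 3.83, 3.35 and 3.17 CPM in LPS-saline brains. It read 8.90, 3.68, 2.86 and 2.08 CPM in saline-LPS brains and 3.20, 3.52, 2.66 and 1.92 CPM in LPS-LPS brains. Every brain exposed to LPS at either age except saline-LPS 1, the highest of the 16, lay below every saline-saline brain. The averaged prenatal difference of -0.71 ± 0.24 did not pass (adjusted p = 0.085), and it passed in 4 of 28 other settings. It passed with the replicate block (-0.68, adjusted p = 0.0356) and without saline-LPS 4 (-0.83, adjusted p = 0.025), and it was -0.40 without saline-LPS 1 (adjusted p = 0.0661).

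C1ql2 did not share the lower values of Prox1 and Dsp after prenatal LPS. It read 17.6, 16.1, 15.4 and 12.7 CPM in saline-saline brains and 16.8, 14.9, 13.6 and 13.1 CPM in LPS-saline brains. It read 20.1, 14.3, 14.1 and 9.96 CPM in saline-LPS brains and 16.9, 16.2, 13.97 and 15.1 CPM in LPS-LPS brains. All groups overlapped, and the highest and lowest brains were both in the saline-LPS group. The averaged prenatal difference was 0.00 ± 0.11 (adjusted p = 0.99). Within groups, C1ql2 and Dsp had the highest positive correlation of any pair of the 10 genes, given with the other pairs below.

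Of 12 further dentate granule genes, 1 was lower and 0 higher in the averaged prenatal comparison, with a median log2 fold change of -0.06. Over all tested genes 2.92% were called lower and 4.9% higher. Dock10, a guanine exchange factor, fell by 0.23 ± 0.05 on the log2 scale (adjusted p = 0.0148), from 68.1 ± 8.29 to 58.1 ± 3.02 CPM (SD, n = 8 each). It was not called with the olfactory bulb covariate or with the length and GC correction. The summed level of the 12 genes ran from 332 to 439 CPM after prenatal saline and from 338 to 415 CPM after prenatal LPS. Of 10 hippocampal pyramidal genes, Zbtb20 was lower (-0.33 ± 0.07, adjusted p = 0.0067) and 9 were not called, and Zbtb20 is also made by dentate granule cells and astrocytes.

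Markers of the thalamus and habenula were set beside Prox1 and Dsp library by library, and no correlation with them was tested. The summed level of 6 such markers was 265, 261, 233 and 253 CPM in saline-saline brains and 184, 187, 161 and 221 CPM in LPS-saline brains. It was 287, 177, 199 and 179 CPM in saline-LPS brains and 186, 171, 166 and 145 CPM in LPS-LPS brains. Saline-LPS 1 was again the highest, and every brain of an LPS-injected dam lay below every saline-saline brain. Of the 6, Rora (-0.27 ± 0.07, adjusted p = 0.0327) and Plekhg1 (-0.56 ± 0.15, adjusted p = 0.0424) were lower after prenatal LPS, 4 were not called, and none was at 0. Those not called were Prkcd (-0.50 ± 0.20, adjusted p = 0.147), Tcf7l2 (-0.31 ± 0.11, adjusted p = 0.0979), Lef1 (-0.09 ± 0.18, adjusted p = 0.824) and Pou4f1 (0.06 ± 0.11, adjusted p = 0.807). Of all tested genes 2.92% were called lower and 4.9% higher. With the mean of these 6 genes as a covariate, a setting chosen after the data were seen, Prox1 differed by -0.26 (adjusted p = 0.0827) and Dsp by -0.15 (adjusted p = 0.672). Since most of these markers were themselves lower after prenatal LPS, the covariate cannot separate thalamic content from the exposure, wherever it is used. Lists for some other sources of Prox1 RNA were read as well, but none covered mature oligodendrocytes. Of 9 genes listed for oligodendrocyte precursors, Enpp6 was lower and C1ql1 higher, and of 8 interneuron genes Sst was higher. Of 3 tested lymphatic genes 0 were called by edgeR or DESeq2 or at an unadjusted p under 0.05, with the lymphatic chemokine gene Ccl21a at 0 in all libraries.

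**Figure D4:**
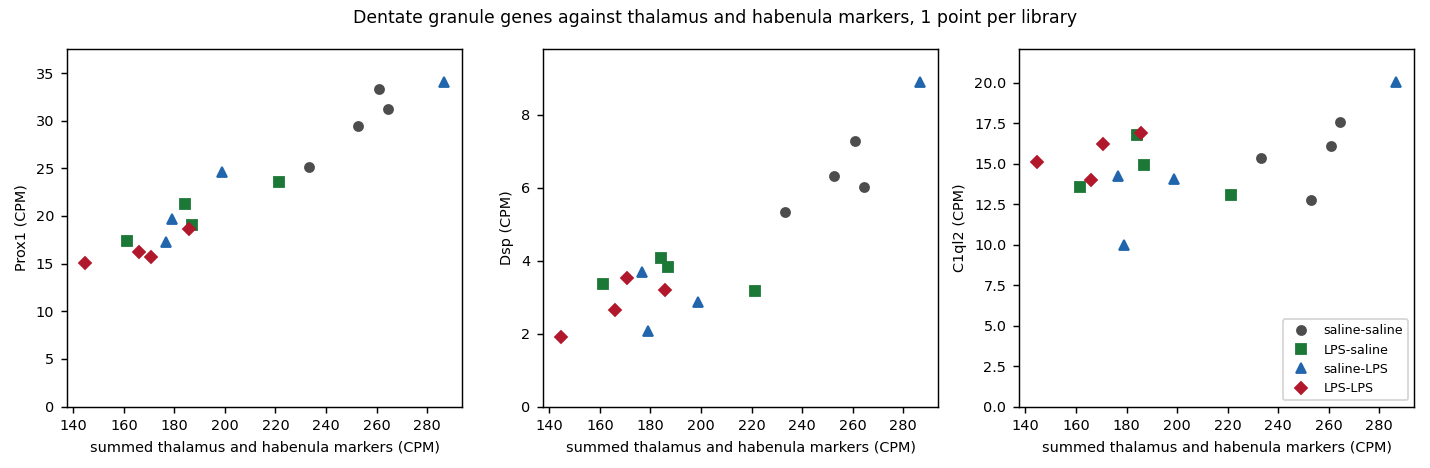
Level (CPM, from 0) of Prox1, Dsp and C1ql2 against the summed CPM of 6 thalamus and habenula markers, 1 point per library, by group. Prox1 climbs with the sum across all groups, Dsp is highest in the saline-saline brains and saline-LPS 1, at the right of the panel, and C1ql2 shows no such order, with saline-LPS 1 at the top right in each panel.

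Other settings bore on these averaged prenatal results. With the olfactory bulb covariate Prox1 differed by -0.29 (adjusted p = 0.287). With the length and GC correction Prox1 differed by -0.47 (adjusted p = 0.0449) and Dsp by -0.63 (adjusted p = 0.12). The exonic sequences of Prox1 and Dsp span 8390 and 9659 bases. Across all tested genes the log2 fold change and exonic length were related at a Spearman's rho of -0.270, and genes are not independent replicates. With the replicate block, 4 of the 10 genes were called (Prox1 and Dsp lower, Eomes and Mki67 higher) in place of 2. The share called of all tested genes was 13.2% with the block and 7.82% without it. Replicate number went with cerebellar content, as described with the methods, so the block cannot show that the mice were paired. Within the 8 Gabra6-poor libraries Prox1 differed by -0.65 (adjusted p = 0.343) and within the 8 others by -0.47 (adjusted p = 0.0655), and Eomes by 0.36 and 0.22.

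Within the pairs of groups, prenatal LPS gave 0 calls among the 10 genes either before pubertal saline, where 0.18% of all tested genes were called, or before pubertal LPS, where 0.609% were. By unadjusted p under 0.05 there were 3 of the 10 genes in each comparison, against 13.2% and 14% of all tested genes. DESeq2's Wald test called 1 in each, Prox1, and 3.04% and 2.77% of the genes to which it gave an adjusted p. Prox1, also among the 3 genes of each comparison, is a description here as well. Groups did not overlap for Prox1 and Dsp (both lower) before pubertal saline and for Eomes (higher) before pubertal LPS. Such separation was found in 9.12% and 7.94% of all tested genes. Dsp was -0.79 ± 0.33 before pubertal saline (adjusted p = 0.322) and -0.64 ± 0.35 before pubertal LPS (adjusted p = 0.443), and the latter was -0.01 without saline-LPS 1. Without that library Prox1 and Dsp were both called before pubertal saline. Id4, an inhibitor of differentiation in stem cells, was higher in LPS-LPS than in saline-LPS brains (0.31 ± 0.06, adjusted p = 0.0261). This was the single call of either comparison among the 84 tested genes of the 5 neurogenesis lists. Before pubertal saline Id4 differed by -0.07 ± 0.06 (adjusted p = 0.721), and saline-LPS against saline-saline gave -0.18 ± 0.06.

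**Figure D5:**
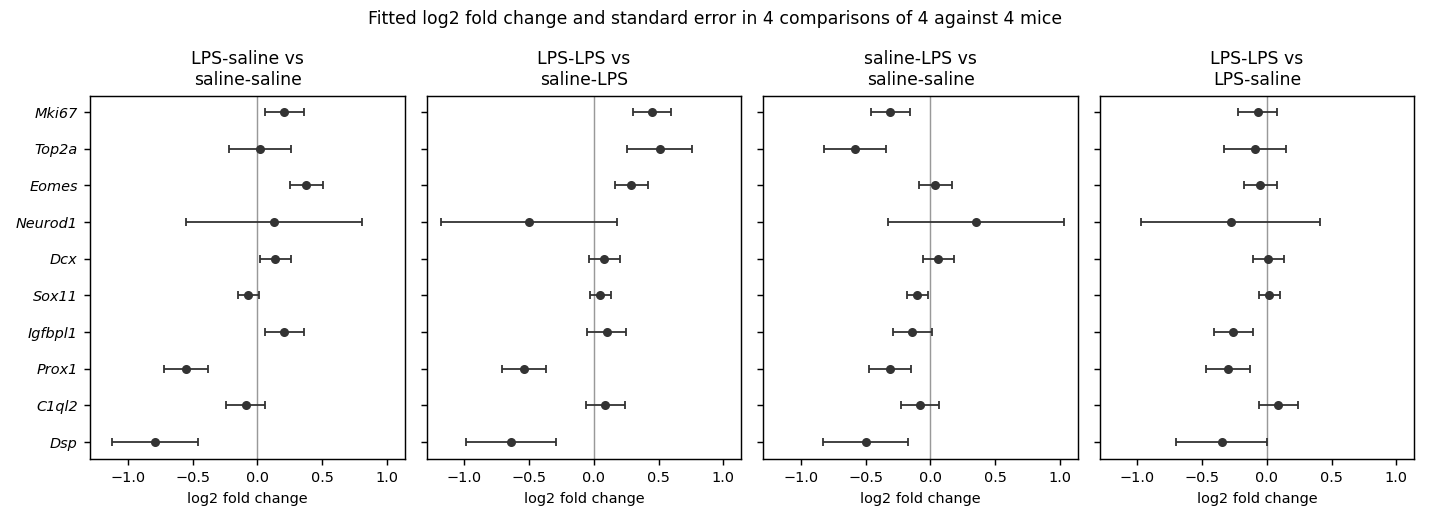
Fitted log2 fold change and standard error of the 10 genes in 4 comparisons of 4 against 4 mice. Prox1 and Dsp lie below 0 and Eomes and Mki67 above 0 in both prenatal comparisons on the left, and no gene passed the adjusted threshold in any of the 4.

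After LPS at both ages against saline at both, Prox1 was lowest: 16.4 ± 1.57 CPM against 29.8 ± 3.48 CPM (SD, n = 4 each), a log2 difference of -0.86 ± 0.17, given as a description. It was the 1 gene of 10 past the threshold in this comparison, in which 6.56% of all tested genes were called and 2.29% were called lower. Dsp averaged 2.82 ± 0.702 against 6.23 ± 0.813 CPM (-1.14 ± 0.34, adjusted p = 0.0595), and it passed without saline-LPS 1 (adjusted p = 0.000426) or saline-LPS 4 (adjusted p = 0.0273), at the same -1.14. Eomes averaged 12.2 ± 0.689 against 9.70 ± 1.82 CPM (0.33 ± 0.13, adjusted p = 0.125). Groups did not overlap for these 3 genes, and the same held for 17.4% of all tested genes.

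The other 7 genes did not pass the test in this comparison, with log2 differences from -0.15 ± 0.68 for Neurod1 to 0.14 ± 0.15 for Mki67 and 0.14 ± 0.12 for Dcx. In the lists, Dock10 fell by 0.37 ± 0.08 on the log2 scale (adjusted p = 0.00879), 1 of 12 dentate granule genes, and Stmn1 (0.27 ± 0.07, adjusted p = 0.0288) and Tubb3 (0.22 ± 0.06, adjusted p = 0.0308) rose, 2 of 17 neuroblast genes. Cell-cycle, stem cell and niche genes gave 0 calls of 26, 15 and 14 by edgeR, with 1, 5 and 3 at an unadjusted p under 0.05 (21.9% of all tested genes), and 0, 1 and 0 calls by DESeq2 (14.6% of the genes to which it gave an adjusted p). With the thalamus covariate Prox1 differed by -0.39 (adjusted p = 0.159) and Dsp by -0.34 (adjusted p = 0.557), and with the olfactory bulb covariate by -0.68 and -0.93.

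Pubertal LPS gave 0 calls among the 10 genes after prenatal saline, after prenatal LPS and averaged, and 0 of 18875 tested genes were called (0%), by edgeR. DESeq2 also called 0 of the 10 in each. By unadjusted p under 0.05 there was 1 gene after prenatal saline, Top2a (-0.58 ± 0.24, adjusted p = 1), 0 after prenatal LPS, and 1 averaged, Prox1 (-0.31 ± 0.12, adjusted p = 0.944). Over all tested genes these shares were 2.83%, 4.01% and 5.02%. Mki67 averaged 2.63 ± 0.320 CPM in saline-LPS and 3.28 ± 0.574 CPM in saline-saline brains, a difference of -0.31 ± 0.15 (adjusted p = 1).

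The value of Dsp after pubertal LPS depended on saline-LPS 1 and saline-LPS 4. The difference between saline-LPS and saline-saline was -0.50 ± 0.33 (adjusted p = 1) with all libraries, -1.13 without saline-LPS 1 (adjusted p = 0.0353) and -0.27 without saline-LPS 4. Averaged over the prenatal injection it was -0.43 ± 0.24 (adjusted p = 0.951), and -0.74 without saline-LPS 1 (adjusted p = 0.0421). Saline-LPS 1 held the pituitary RNA given above, the highest thalamus and habenula sum and the lowest Dcx of the 16, and the part of these in its Dsp value was not tested.

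The interaction of both injections gave 0 calls among the 10 genes and over all tested genes (0%), by edgeR and among the 10 by DESeq2, with 0 of the 10 at an unadjusted p under 0.05 against 2.13% of all tested genes. Its log2 values ran from -0.63 ± 0.96 for Neurod1 to 0.49 ± 0.34 for Top2a, and that of Prox1 was 0.01 ± 0.24. The errors of Neurod1 and Dsp (0.15 ± 0.48) leave room for differences as large as the prenatal ones.

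Among growth and signalling genes of the neurogenic niche, 2 of 14 tested rose in the averaged prenatal comparison. The share called higher of all tested genes was 4.9%. Nog, a secreted inhibitor of bone morphogenetic proteins, rose by 0.25 ± 0.06 (adjusted p = 0.0119), from 17.7 ± 1.53 to 21.03 ± 1.115 CPM (SD, n = 8 each). Frzb, a secreted Wnt antagonist, rose by 0.19 ± 0.05 (adjusted p = 0.0338). Neither was called with the olfactory bulb covariate or with the length and GC correction, and Dkk1 was too low to test.

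Within groups, no pair of the 10 genes passed the test of a correlation. Of 45 pairs of genes, correlated as deviations of log2 CPM from group means, 0 passed adjustment over the 65 relations computed. C1ql2 and Dsp, both markers of dentate granule cells, gave r = 0.80 (permutation p = 0.0139, adjusted p = 0.186) and rho = 0.72 (permutation p = 0.00597, adjusted p = 0.097). Their r was 0.37 without the 2 libraries farthest from the median of C1ql2, a step that also narrows the range of C1ql2. It was 0.85 in the 8 Gabra6-poor libraries and 0.59 in the 8 others. By rank C1ql2 and Neurod1 had the smallest p, with rho = -0.74 (permutation p = 0.00443, adjusted p = 0.096) and r = -0.57 (permutation p = 0.0668, adjusted p = 0.222), and r = -0.72 without the 2 farthest. That r was -0.58 in the Gabra6-poor libraries and -0.15 in the others. Prox1 and Mki67 gave rho = 0.68 (permutation p = 0.00885, adjusted p = 0.105) and r = 0.51 (permutation p = 0.0395, adjusted p = 0.195), and r = 0.68 without the 2 farthest. Prox1 and Dcx gave r = -0.76 (permutation p = 0.0175, adjusted p = 0.186) and rho = -0.67 (permutation p = 0.0253, adjusted p = 0.14), and r = -0.61 without the 2 libraries farthest from the median of Prox1. Prox1 and Dsp gave r = 0.65 (permutation p = 0.114, adjusted p = 0.296) and rho = 0.45 (permutation p = 0.142, adjusted p = 0.313), with r = 0.46 without the 2 farthest.

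Over the 16 libraries, group differences included, the genes whose log2 CPM was most like that of Prox1 among 13729 genes were Plekhh1 (r = 0.97), Unc5b and Adamts4 (0.96 each), and Tmcc3 and Dennd5a (0.95 each). Their exonic lengths ran from 4810 to 8677 bases. Those most like Dcx were Rasl11b (0.87), Bex2 (0.86), Zar1 (0.85), Slc35f4 (0.84) and Herc6 (0.84). These values share each library's scaling and length trend and are descriptions of 16 points.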

How the data were processed

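Each mouse has 1 deposited file of whole read counts by Ensembl gene. Per the submitters' processing notes the authors used STAR 2.5.2b, HTSeq 0.11.2 and build GRCm38. Neither strand nor annotation release is given in the sources used here, so overlapping genes cannot be told apart. The 5 special entries per file (reads without a gene, 8.37 to 11% of counts, and others) were left out. GENCODE M21 matched 49412 of 49671 identifiers.

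Genes were filtered with filterByExpr, scaled by TMM and tested with edgeR 4.0.16 (quasi-likelihood, robust, 4 group means, 16 libraries) in R 4.3.3, two-sided, with Benjamini-Hochberg adjustment over 18875 genes and a threshold of 0.05. The test was checked on simulated independent counts with the same spread for every gene. These held no length trend, regional difference or replicate structure, so the check does not cover those features. There were 8 comparisons: 5 pairs of groups, the interaction and each injection averaged over the other. Correlations used 100000 permutations within groups (scipy 1.17.1). Reads carried no molecular identifiers, so the worth of 1 read covers counting error only. No 2 libraries of a group agreed within counting noise.

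The genes, lists and tests were chosen with earlier results of these data known. Named genes were the 10, those called in each list in the averaged prenatal or both-ages comparison (up to 4 per direction by p, otherwise the 2 of smallest p), the 5 most like Prox1 and Dcx, and Gabra6, Gh, Xist and Ddx3y as checks of libraries. Snap25, Slc17a7, Tac2, Tbx21, Id4, C1ql1, Enpp6, Sst, Ccl21a, Prkcd, Tcf7l2, Lef1 and Pou4f1 were added after their values were seen. Alternatives were DESeq2 1.42.0, other scalings and filters, a replicate block, region covariates, a length and GC correction (mgcv 1.9.3), subsets and leaving out each library; a thalamus covariate and leaving out 3 libraries together were chosen after seeing the data.

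Replicate numbers come from the labels. Over 15229 genes, deviations of same-numbered libraries from their group means correlated at 0.115 to 0.578 between LPS-saline and saline-saline, at 0.284 to 0.367 between LPS-LPS and saline-LPS, and at 0.156 to 0.363 between LPS-LPS and LPS-saline. The main test took no libraries as paired, and the replicate block was an alternative setting only. The best match of only 9 of 16 libraries had the same number. In the other comparisons the lowest correlation of same-numbered libraries was 0.0124 or less. Replicate number also went with the cerebellar score, the mean log2 CPM of Gabra6, Cbln3 and Fat2. That score ran from -1.511 to -1.218 in the libraries numbered 2 and from 4.602 to 6.176 in those numbered 4. The correlations of same-numbered libraries therefore cannot tell pairing from shared cerebellar content.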

Additional observations from a re-analysis of the deposited data

Results flagged for a closer look

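In 4 of 40 groups of 4 brains (10 genes in 4 groups), 1 brain stood apart from the other 3 beyond Dixon's critical value, where chance alone gives about 1 in 20. Igfbpl1 was 4.88 CPM in saline-saline 3, below 6.67 to 7.01 CPM in the other saline-saline brains, and Eomes was 10.9 CPM in LPS-saline 1, below 13.1 to 13.4 CPM in the other LPS-saline brains. Neurod1 was 29.3 CPM in saline-saline 4 against 7.18 to 7.37 CPM, and 29.9 CPM in LPS-saline 4 against 7.66 to 10.7 CPM. The latter brains held 44.3 and 52.6 CPM of Gabra6, the most of their groups.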

How the results depend on the processing

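Over 60 results, 1640 alternative values were computed, of which 1438 kept the direction and side of the threshold or stayed within 1.5 times a count, 109 counts moved, 28 values gained and 14 lost a call, and 51 reversed. The number of the 10 genes called after prenatal LPS, 2 averaged, was 4 with DESeq2, the replicate block or the cerebellar covariate, 1 without the 3 libraries with pituitary or Xist RNA, and 0 with the olfactory bulb or thalamus covariate or within either Gabra6 subset. For both exposures against none it was 1, and 2 with DESeq2, with only the groups compared, with the replicate block, with the cerebellar covariate or without those 3 libraries, and 0 with the thalamus covariate. Before pubertal saline it was 0, and 1 with DESeq2, 2 with only the groups compared or without those 3 libraries. Before pubertal LPS it was 0, and 1 with DESeq2. Prox1, a description only, is included in each of these counts of called genes above 0. For averaged pubertal LPS the number called was 0, and 1 (Dsp) within libraries at 1 CPM or more of Gabra6. With the replicate block the counts for prenatal LPS within each pubertal group and for pubertal LPS stayed at 0.

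Leaving out single libraries gave counts of 1 to 3 averaged, 0 to 2 before pubertal saline, 1 to 2 for both exposures, and 0 to 1 for pubertal LPS after prenatal saline and averaged. The averaged log2 fold change ran from -0.07 to 0.10 for C1ql2, -0.05 to 0.02 for Sox11 and -0.52 to 0.21 for Neurod1. For both exposures it ran from -0.08 to 0.08 for C1ql2, -0.10 to 0.01 for Sox11, -0.16 to 0.06 for Igfbpl1, -0.37 to 0.65 for Neurod1 and -0.36 to 0.04 for Top2a. Top2a ran from -0.13 to 0.10 before pubertal saline and from -0.38 to 0.02 for pubertal LPS after prenatal LPS, where Mki67 ran from -0.18 to 0.01.

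Values that changed sign were not called in either setting. Averaged, they were -0.003, -0.16 and -0.07 for C1ql2 with library totals, the length and GC correction and Gabra6-poor libraries. Dcx was -0.08 and -0.07 with the olfactory bulb and thalamus covariates. Sox11 was 0.003, 0.06 and 0.08 with the cerebellar covariate, the length and GC correction and libraries at 1 CPM or more of Gabra6. Igfbpl1 was -0.05 and -0.03, and Neurod1 0.37 and 0.08, with the olfactory bulb covariate and Gabra6-poor libraries. For both exposures, C1ql2 was -0.004, -0.003 and -0.21 with library totals, only the groups compared and the length and GC correction, Sox11 was 0.05 with that correction, Dcx was -0.17 with the thalamus covariate, and Neurod1 was 0.26 with the olfactory bulb covariate. Top2a was 0.13, 0.28 and 0.04 with the olfactory bulb and thalamus covariates and the length and GC correction. The causes were not tested.

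In the wider lists the averaged counts of calls ran, over all alternatives, from 0 to 1 for cell-cycle, 0 to 4 for stem cell, 0 to 6 for neuroblast, 0 to 2 for dentate granule and 0 to 4 for niche genes. Depth limits the lowest genes most: 276 reads of Top2a stood behind the 4 saline-LPS brains.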
